A study of Mus musculus with 7 samples.

Results

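The CHD genes encode chromodomain helicase DNA-binding proteins, and the mouse has 9 of them, Chd1 to Chd9, among the 21938 protein-coding genes on the main chromosomes. A peak was assigned to a CHD gene when its centre fell inside the gene or up to 50 kb away (mm10, GENCODE M21 genes). No measured value entered this assignment, although the family was chosen with earlier results of these data known. All 9 genes were found. Their windows held 103 of the 31400 H3K27ac peaks of wild-type (WT) GNPs, 6 of the 1946 Chd7 peaks of WT GNPs and 0 of the 96 Chd7 peaks of Chd7-deficient GNPs. Chd7 itself accounted for 53 of these H3K27ac peaks and 3 of these Chd7 peaks, and its 8 paralogues together for 50 and 3.

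CHD proteins use the energy of ATP to slide, evict or exchange nucleosomes, and they carry paired chromodomains. Chd1 and Chd2 form subfamily I and act on transcribed genes. Chd3, Chd4 and Chd5 form subfamily II and are the alternative motor subunits of the NuRD complex, which joins remodelling to histone deacetylation. Subfamily III holds Chd6, Chd7, Chd8 and Chd9. Loss of Chd7 function causes CHARGE syndrome in humans, and Chd8 is a frequent target of mutations in autism. Acetylation of histone H3 at lysine 27 (H3K27ac) marks active promoters and enhancers, so a peak of it at a CHD gene shows an active element there and not the level of the gene's RNA.

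Granule neuron progenitors (GNPs) are the dividing precursors of cerebellar granule neurons (CGNs). GNPs were taken at P7 from C57BL/6 pups, given as C57BL/6N in the study's methods, and chromatin was immunoprecipitated for H3K27ac in WT cells and for Chd7 in WT and in Chd7-deficient cells. CGNs, obtained by culturing GNPs without Shh, were used for topoisomerase II beta (Top2b) in WT and Chd7-deficient cells. Each combination had 1 library, so differences between libraries have no replicate error to be held against, and no test was made. In the study the Chd7-deficient mice carry Atoh1-Cre and 2 floxed Chd7 alleles and the WT mice the floxed alleles alone, and Atoh1-Cre acts in the rhombic lip lineage that gives granule cells. The study describes Chd7 protein that persists in the posterior lobe of these mice, so a Chd7-deficient preparation may hold cells with Chd7. Cells were separated on a percoll gradient, which enriches GNPs without sorting them by a marker. An H3K27ac peak lay within 2 kb of a start site for 10 of 10 GNP markers, including Atoh1, Barhl1 and Zic1, against 2 of 5 Purkinje cell, 3 of 4 inhibitory interneuron, 2 of 4 astroglial, 1 of 4 oligodendrocyte lineage, 1 of 4 microglial and 0 of 4 endothelial markers. Of all protein-coding genes 46.5% had such a peak. The part of other cell types in the peaks at CHD genes was not tested. The peak tables do not give read totals. Fold enrichment is the fragment pileup at the summit over the local background, with 1 added to each. Its median was 4.35 for H3K27ac, 4.07 for Chd7 in WT and 4.87 for Chd7 in Chd7-deficient GNPs.

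Sequences are shown for a Chd7-bound site in each of Chd7, Chd3 and Chd6, and for the strongest acetylated start site of the family. They were read from GRCm38.p6 and are given 5′ to 3′ on the strand of the gene. The first 2 cover 200 bases around a Chd7 summit, and the last 2 the 150 bases before a start site. Capitals mark the searched motifs, which were the E-boxes CAGCTG and CAGATG, the GC box GGGCGG, the NFI half-site TTGGCA and the Zic core CAGCAGG, on either strand.
Chd7 intron, 69.4 kb from the start, chr4:8759711-8759910, plus strand: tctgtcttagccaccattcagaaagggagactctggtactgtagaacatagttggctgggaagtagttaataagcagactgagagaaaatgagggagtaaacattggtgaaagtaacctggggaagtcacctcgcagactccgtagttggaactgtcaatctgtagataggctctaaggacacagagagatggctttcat
Chd3 intron, chr11:69366444-69366643, minus strand: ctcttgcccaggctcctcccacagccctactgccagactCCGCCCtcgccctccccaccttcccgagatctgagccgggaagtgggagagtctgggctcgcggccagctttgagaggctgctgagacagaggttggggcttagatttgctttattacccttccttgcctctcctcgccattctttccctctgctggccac
Chd6, before the gene start, chr2:161109076-161109225, minus strand: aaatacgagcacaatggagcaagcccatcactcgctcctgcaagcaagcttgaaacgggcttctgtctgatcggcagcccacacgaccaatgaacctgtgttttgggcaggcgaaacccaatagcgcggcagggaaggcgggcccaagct
1810026B05Rik, before the gene start, chr7:73558396-73558545, minus strand: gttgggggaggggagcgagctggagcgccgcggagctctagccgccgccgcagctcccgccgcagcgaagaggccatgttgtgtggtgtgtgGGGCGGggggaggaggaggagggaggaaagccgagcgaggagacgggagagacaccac
The Chd3 intron and the 1810026B05Rik upstream region held a GC box each, and the Chd7 site and the Chd6 upstream region none of these letters. CpG content went from 2 CpGs in 200 bases at the Chd7 site to 14 in 150 bases before 1810026B05Rik.

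Within 150 bases on each side of the summit, the 6 Chd7 peaks at CHD genes held CAGCTG in 2, CAGATG in 2, a GC box in 3, an NFI half-site in 1 and a Zic core in 1. Among the 1902 WT Chd7 peaks on the main chromosomes, the shares with each were 26.1% for CAGCTG, 31.2% for CAGATG, 36% for the GC box, 25.5% for the NFI half-site and 14.6% for the Zic core. Among 31395 H3K27ac peaks they were 18.0%, 22.4%, 22.0%, 14.4% and 11.9%. In the same 300 bases GC content was 49.3% at the Chd7 site shown, 60.3% at Chd3, 53.3% at Chd6 and 60.7% at the site near Chd8, beside a median of 56% over the WT Chd7 peaks. A match is only a run of letters, and occupancy by a factor was not measured.

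**Figure D1:**
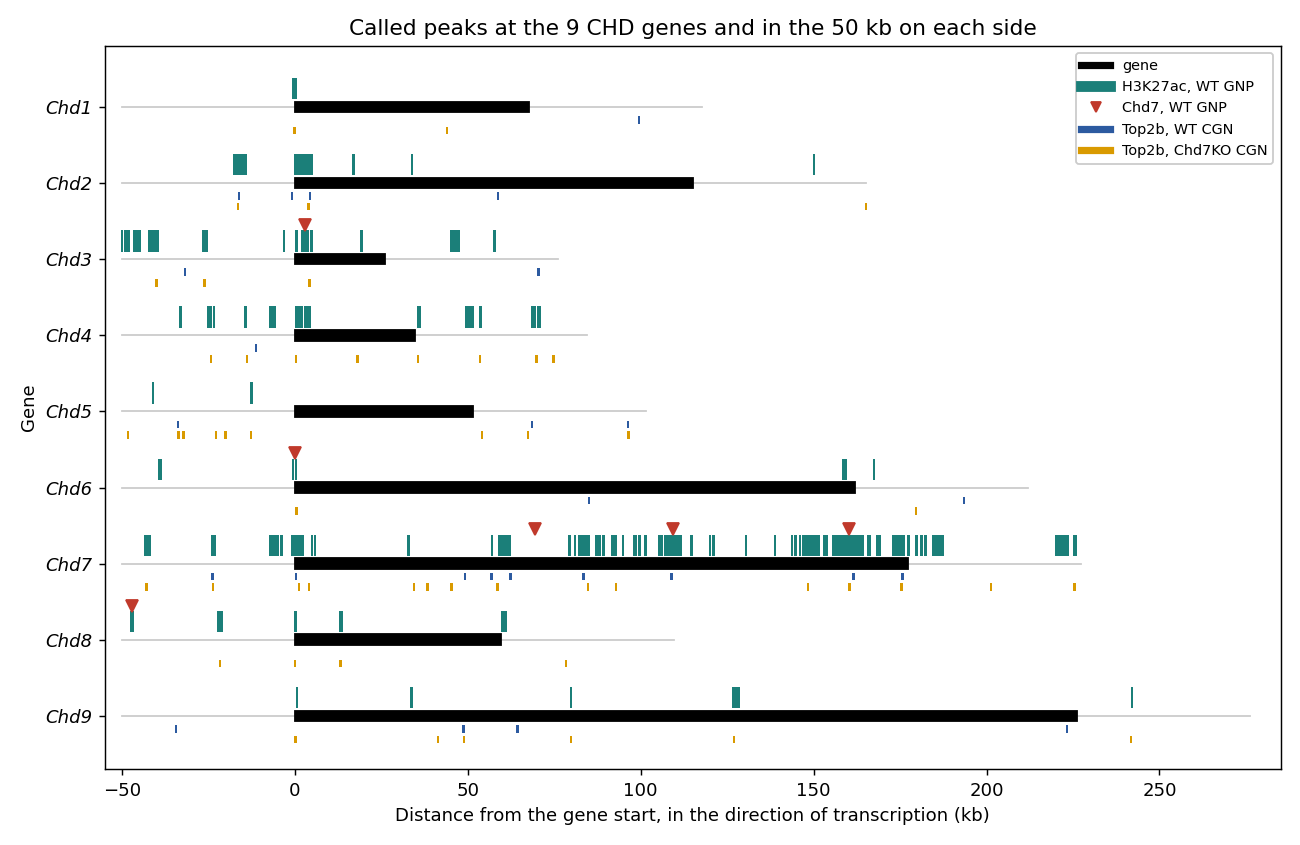
Called peaks at the 9 CHD genes, aligned at the gene start, with distance in kb in the direction of transcription on the horizontal axis. Black bars are genes, teal boxes H3K27ac peaks and red triangles Chd7 summits of WT GNPs, and blue and gold boxes Top2b peaks of WT and Chd7-deficient CGNs (boxes are at least 0.7 kb wide to be visible). Chd7 has 53 H3K27ac peaks in its window, 37 of them inside the gene, whereas Chd1 and Chd5 have 1 and 2.

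Acetylated start sites were found at nearly the whole family. An H3K27ac peak lay within 2 kb of a coding start site of 8 of the 9 CHD genes, Chd5 being the exception, whereas 46.5% of all protein-coding genes had one. In the map of the family the peaks are spread very unevenly. In the order of their names, Chd1 to Chd9 had 1, 5, 12, 13, 2, 6, 53, 6 and 5 H3K27ac peaks in their windows, and a protein-coding gene had a median of 2.

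In subfamily I, Chd1 (chr17:15704967-15772610, plus strand), a remodeller of transcribed chromatin, had a single H3K27ac peak. It covered 1305 bp at the start of the gene (chr17:15704232-15705536) at a fold enrichment of 12.1, and no peak lay inside the remaining gene. Chd2 (chr7:73426638-73541830, minus strand), whose loss of function causes epilepsy in humans, had 5. The peak at its own start was 5440 bp wide (chr7:73536648-73542087) with a fold of 24.8, which ranked 426 of all H3K27ac peaks. An intronic peak 17 kb into Chd2 had a fold of 8.69, and the other peaks of the window apart from the one described next had folds of 3.44 and 2.51.

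The strongest H3K27ac peak of the family lay upstream of Chd2. It covered 4030 bp (chr7:73555756-73559785), had a fold of 42.7 and a pileup of 291, and ranked 12 of 31400 peaks by fold. Its summit was 251 bases inside the start of 1810026B05Rik, a non-coding transcript annotated at chr7:73539203-73558395 on the strand of Chd2, whose start is 16.6 kb before that of Chd2. This transcript is known as Chaserr, a cis-acting regulator of Chd2. No Chd7 peak overlapped it, and Top2b peaks of both WT and Chd7-deficient CGNs did.

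In subfamily II, Chd3 (chr11:69343273-69369406, minus strand) and Chd4 (chr6:125095981-125130591, plus strand), the motor subunits of NuRD, had 12 and 13 H3K27ac peaks in windows that also hold 8 and 7 other coding genes. Only 5 of the 12 and 3 of the 13 had the CHD gene's own start site as the nearest. At Chd3 the peak over the gene start (chr11:69368411-69369417) had a fold of 20.5, and a further peak of 12.3 lay 3.16 kb into the gene. The strongest peak of its window, with a fold of 24.1 (chr11:69413821-69416246), was nearest to Kdm6b, an H3K27 demethylase gene. At Chd4 the peak at the start (chr6:125095996-125098435) had a fold of 9.39, and an intronic peak 3.66 kb into the gene had 15.0. The strongest peak of the Chd4 window, at 15.2 (chr6:125145213-125146219), was nearest to Iffo1.

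Chd5 (chr4:152338651-152390194, plus strand), the NuRD motor found mainly in neurons, had no acetylated start site. Its window held 2 H3K27ac peaks, both upstream of the gene, and its 51544 bp gene body held none. The peak 12.6 kb upstream had a fold of 8.99 (chr4:152325807-152326383) and Rpl22 as the nearest start site, and the peak 41.0 kb upstream had 5.86 and Icmt as the nearest. At the start sites of the 3 NuRD motor genes the fold was thus 20.5 at Chd3 and 9.39 at Chd4, and no peak was called at Chd5.

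In subfamily III without Chd7, Chd6 (chr2:160946978-161109075, minus strand) and Chd8 (chr14:52198151-52257780, minus strand) had 6 H3K27ac peaks each and Chd9 (chr8:90828352-91054516, plus strand) had 5. The start-site peak had a fold of 9.60 at Chd6 (chr2:161108330-161109106) and 7.53 at Chd8 (chr14:52257115-52257921). The strongest peak of the Chd8 window, at 14.9 (chr14:52196359-52198042), was nearest to Supt16. At Chd9 the peak at the gene start had a fold of 3.14, and the strongest, at 15.3 (chr8:90954726-90956990), lay 127 kb into the gene at an internal start site. For comparison, the median fold was 4.35 over all H3K27ac peaks and 7.09 over the 11260 centred within 2 kb of a coding start site.

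Chd7 (chr4:8690406-8867659, plus strand) was far more widely acetylated than any of its paralogues. Its 53 H3K27ac peaks covered 70.2 kb, or 25.3% of the window, in comparison with 1.21 to 18.3 kb at the paralogues. The count was 9.64 times the paralogue median of 5.5 and 4.08 times the highest paralogue count, that of Chd4. The covered length was 13.6 times the paralogue median of 5.18 kb. In the order of covered length Chd7 was followed by Chd3 at 18.3 kb, Chd4 at 16.2, Chd2 at 10.9, Chd8 at 5.97, Chd9 at 4.40, Chd6 at 3.46, Chd1 at 1.31 and Chd5 at 1.21 kb. These window lengths include elements of neighbouring genes. For peaks centred inside the gene, the length was 51.4 kb at Chd7, 6.48 at Chd2, 4.55 at Chd3 and 4.24 at Chd4. Chd9 then had 3.90, Chd8 1.87 and Chd6 1.74 kb, and Chd1 and Chd5 had 0. With 1 H3K27ac library, neighbours in either order cannot be separated by their spread.

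The window of Chd7 contains no other protein-coding gene, and all 53 peaks had a Chd7 start site as the nearest coding one. The extent of the gene was set beside the counts because Chd7, at 177 kb, is 2.79 times as long as the median paralogue. Per 100 kb of window Chd7 had 19.1 H3K27ac peaks, against 0.597 to 9.66 at the paralogues, and per 100 kb of gene body 20.9 against 0 to 15.3, the highest being Chd3. The longer Chd9, at 226 kb, had 4 peaks in its gene body where Chd7 had 37. Among all protein-coding genes Chd7 ranked 6 by peak number, 8 by covered length and 12 by peaks per 100 kb of window, but 1095 by peaks per 100 kb of gene body. Among the 7705 protein-coding genes between 26.1 and 226 kb long, the range of the CHD genes, it ranked 1 by peak number and 3 by covered length.

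**Figure D2:**
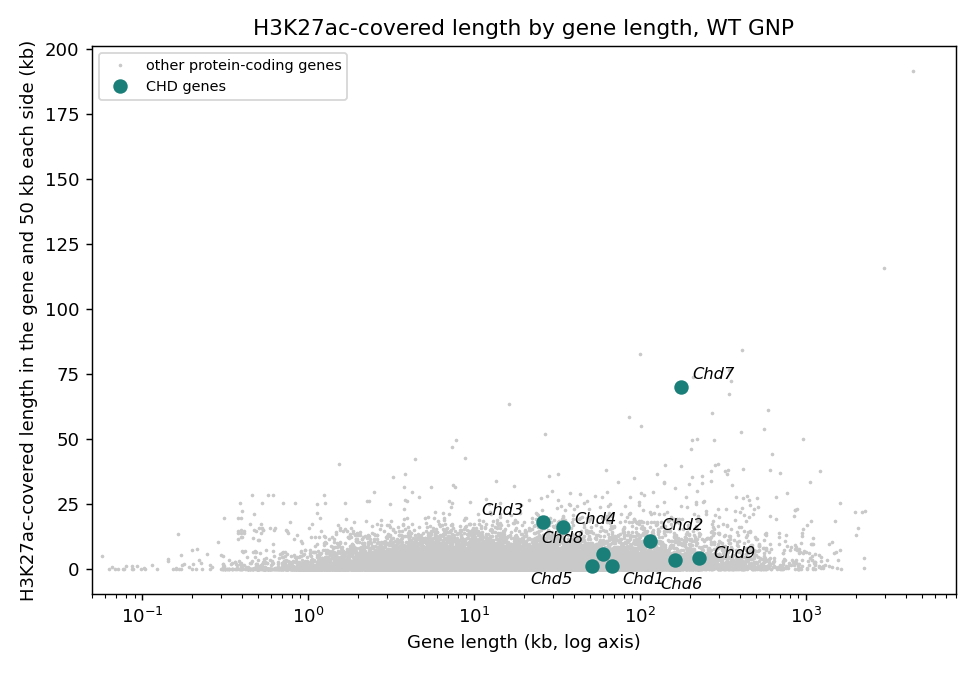
Length covered by H3K27ac peaks in the gene and 50 kb on each side (vertical axis, kb) against gene length (horizontal log axis, kb), for 21938 protein-coding genes of WT GNPs, with CHD genes as large teal points. Chd7, at 70.2 kb, stands apart from its 8 paralogues, which lie at 18.3 kb or lower over a similar range of gene lengths.

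The protein-coding genes nearest to Chd7 in peak number were Nfia with 53, Tcf4 with 57 and Man1c1 with 48 H3K27ac peaks, chosen over the single H3K27ac library. Nfia encodes a nuclear factor I transcription factor of granule neurons, Tcf4 an E-protein that pairs with proneural factors and Man1c1 a Golgi mannosidase. Their covered lengths were 67.5, 76.5 and 40.3 kb. Of the 3, Tcf4 had WT Chd7 peaks, numbering 4, while Nfia and Man1c1 had 0.

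The H3K27ac peaks of Chd7 fell into few strong and many weak ones. Of the 53 peaks, 34 lay in introns, 3 in exons, 7 upstream and 9 downstream. Fold enrichment ran from 2.32 to 33.0 with a median of 3.81, and width from 307 to 9309 bp with a median of 732 bp. A fold of at least 10 was reached by 9 peaks, which made up 44.7% of the acetylated length, and 36 had a fold under 5 and made up 32.7%.

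The highest fold was that of the start-site peak (chr4:8690448-8693096), at 33.0 with a pileup of 188, rank 103 of all H3K27ac peaks by fold. An intronic peak 109 kb into the gene (chr4:8797043-8802279) had a fold of 32.6, rank 106, and the higher pileup, 195. The third, with a fold of 19.8, was also the widest of the family at 9309 bp (chr4:8845659-8854967), and ranked 31 of all H3K27ac peaks by width. Counted along the gene, the H3K27ac peaks numbered 7 in the 50 kb upstream, 4, 7, 12 and 14 in 4 equal stretches of the gene from start to end, and 9 in the 50 kb downstream. The covered length grew likewise from 4.35 kb in the first stretch to 23.1 kb in the last.

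**Figure D3:**
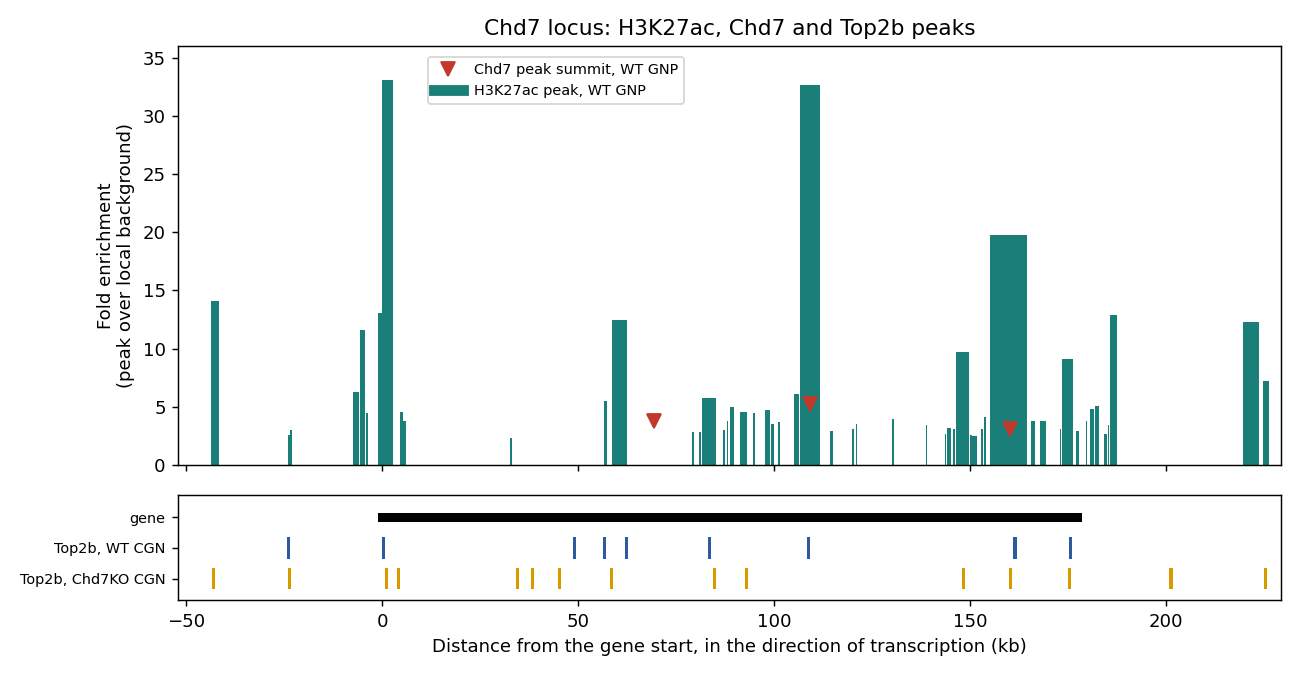
The Chd7 locus. Upper panel: fold enrichment of each H3K27ac peak of WT GNPs (teal bars, drawn to their width) and of the 3 Chd7 peaks (red triangles), against distance from the gene start in kb. Lower panel: the gene and the Top2b peaks of WT (9) and Chd7-deficient (15) CGNs. The tallest bars stand at the start and 109 kb into the gene, and the widest near 160 kb.

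Super-enhancer-like regions, formed by joining H3K27ac peaks less than 12.5 kb apart and ranking them by width times pileup, overlapped Chd2, Chd4 and Chd7. Such a region overlapped 4.18% of all protein-coding genes and 4.33% of those as long as CHD genes. With peaks joined at less than 5 kb instead, only Chd2 and Chd7 overlapped such a region. At Chd7 a region of 108 kb with 38 peaks ranked 11 of 17539 joined regions and covered the 3′ part of the gene (chr4:8769614-8878038), and a region of 13.6 kb with 7 peaks around the start ranked 241. With a region of rank 349 in the downstream flank, 47 of the 53 H3K27ac peaks of Chd7 lay in such regions. The region at Chd2 (chr7:73524557-73542087) was 17.5 kb long and ranked 136. The region at Chd4 (chr6:125062706-125100528) was 37.8 kb long, ranked 340, and took in 5 peaks upstream of Chd4. When peaks within 2 kb of a start site were left out before joining, Chd7 alone among the CHD genes kept such a region.

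To see whether Chd7 occupies the genes of its own family, the 6 Chd7 peaks of WT GNPs in the windows were described one at a time. They lay at 4 of the 9 genes, beside 14.3% of all protein-coding genes and 16.5% of those as long as CHD genes. With 9 genes and 1 library the count is given as a description. Chd7 had 3, Chd3, Chd6 and the window of Chd8 had 1 each, and Chd1, Chd2, Chd4, Chd5 and Chd9 had 0. A Chd7 peak within 2 kb of the gene's own start sites was found at Chd3 and Chd6, and 4.18% of all protein-coding genes had one. Pileups of this library are whole numbers of fragments, and their intervals are exact 95% Poisson intervals that cover counting error only.

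The highest of these peaks lay in an intron of Chd7 itself, 109 kb from the gene start (chr4:8799025-8799871). It had a pileup of 23 fragments (14.6 to 34.5), a fold of 5.26 and a −log10 q-value of 7.34, and ranked 217 of the 1946 WT Chd7 peaks by fold. It lay inside the H3K27ac peak of fold 32.6 and overlapped a Top2b peak of WT CGNs and none of Chd7-deficient CGNs. The second peak of Chd7, 160 kb into the gene (chr4:8850470-8850785), had a pileup of 21 (13.0 to 32.1) but a fold of only 3.05, rank 1803, and lay inside the 9309 bp H3K27ac peak. It overlapped a Top2b peak of Chd7-deficient CGNs, and the nearest Top2b peak of WT CGNs was 0.92 kb away. The last, 69.4 kb into the gene (chr4:8759630-8759933), had the lowest pileup of the 6, at 13 (6.92 to 22.2), and a fold of 3.76. It overlapped no H3K27ac peak, the nearest being 6.82 kb away. The start of Chd7, where the H3K27ac peak of fold 33.0 lay, had no called Chd7 peak.

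Among the paralogues, the peak of Chd3 (chr11:69366094-69366644) lay in an intron 2.86 kb from the gene start and 1.77 kb from the nearest annotated coding start site of Chd3. Its pileup was 19 (11.4 to 29.7) and its fold 4.92, rank 346, and it sat in the H3K27ac peak of fold 12.3 and not in the stronger one over the gene start. The peak of Chd6 (chr2:161108607-161109196) had its summit on the first base of the gene. It had a pileup of 21 (13.0 to 32.1) over a background of 6.90, hence a fold of 2.78, rank 1879 of 1946, and it overlapped the start-site H3K27ac peak. The peak in the window of Chd8 (chr14:52304832-52305257) was 47.2 kb upstream, inside Mettl3 and 0.063 kb from a start site of that RNA methyltransferase gene, with a pileup of 18 (10.7 to 28.4) and a fold of 4.83. No Chd7 peak lay inside Chd8 itself.

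**Figure D4:**
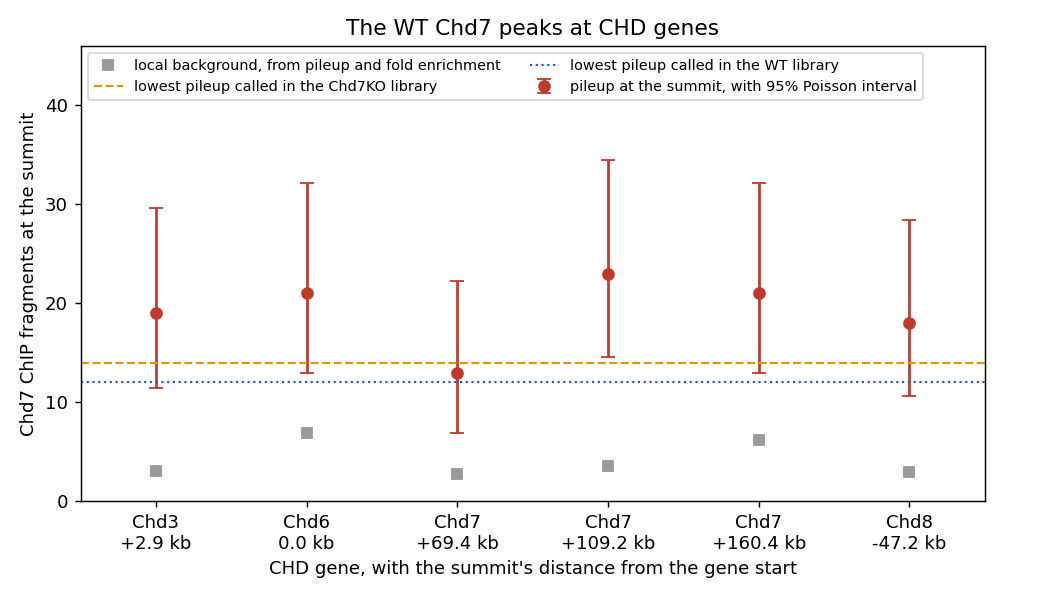
The 6 Chd7 peaks of WT GNPs at CHD genes, named by gene and distance from the gene start in kb, with the fragment pileup at the summit (red points, exact 95% Poisson intervals) and the local background (grey squares) on the vertical axis. Dashed and dotted lines give the lowest pileups called in Chd7-deficient (14) and WT (12) GNPs. All 6 points lie above their background, and the peak at 69.4 kb, with 13 fragments, lies under the lowest pileup called in Chd7-deficient GNPs.

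None of the 6 peaks overlapped a Chd7 peak of Chd7-deficient GNPs, and of all 1946 WT Chd7 peaks only 62 did. The Chd7-deficient library had 0 Chd7 peaks in the window of any CHD gene, beside 0.205% of all protein-coding genes with such a peak. Its peaks were far from the family. The nearest to any CHD gene was 5861 kb from Chd5, the chromosomes of Chd3 and Chd8 had 0, and 39 of the 96 lay on scaffolds outside the main chromosomes. The lowest pileup listed in that library was 14 fragments, so a weaker signal at a CHD gene would not be listed.

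The Chd7-bound and the acetylated elements of the family were then set against each other. Of the 6 Chd7 peaks, 5 overlapped an H3K27ac peak, or 83.3% (95% Wilson interval 43.6 to 97.0%), and 77.9% of all WT Chd7 peaks did. In the other direction, 2 of the 53 H3K27ac peaks of Chd7 held a Chd7 peak (3.77%, 1.04 to 12.8%), as did 3 of the 50 of the paralogues (6.00%, 2.06 to 16.2%) and 4.98% of all H3K27ac peaks. These intervals overlap, and a difference between Chd7 and its paralogues in the share of acetylated elements with Chd7 was not tested. Of the H3K27ac peaks with the highest fold in each of the 9 windows, that at the start of Chd6 carried a called Chd7 peak and the other 8 did not, among them the element upstream of Chd2.

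Top2b relieves the torsion of DNA in neurons and was mapped in CGNs, the next stage of the lineage, as positions without heights. The windows of the CHD genes held 26 Top2b peaks in WT and 52 in Chd7-deficient CGNs, while the libraries as a whole had 17030 and 21505. At least 1 peak was found at 8 of the 9 genes in WT and at 9 of the 9 in Chd7-deficient CGNs. The corresponding shares of all protein-coding genes were 62.2% and 71%, and of those as long as CHD genes 70.3% and 79.6%. Chd7 had the most of the family in both genotypes, with 9 and 15. These counts were not scaled to window length, which was 277 kb at Chd7, 135 kb at Chd4 and 152 kb at Chd5. Chd4 had 1 and 8, Chd8 0 and 4, Chd5 3 and 9, Chd9 4 and 6, Chd3 2 and 3, Chd1 1 and 2, Chd6 2 and 2, and Chd2 4 and 3. Many of these peaks were nearest to neighbouring genes. Those nearest to the CHD gene's own start site numbered 1 and 2 at Chd4, 0 and 2 at Chd8 and 0 and 1 at Chd5. Inside Chd5 itself 0 Top2b peaks lay in either genotype. The window count was higher in Chd7-deficient CGNs at 7 of the 9 genes, and only at Chd2 was it lower. It was likewise higher at 43.4% of all protein-coding genes and 46.6% of those as long as CHD genes. Of the WT peaks at CHD genes 6 overlapped a peak of Chd7-deficient CGNs, 2 of them at Chd7, 2 at Chd5, 1 at Chd2 and 1 at Chd9. Over the whole libraries 16.8% of the WT peaks and 13.3% of the Chd7-deficient ones were shared, by 1 bp or more. Most called positions thus did not overlap, at the CHD genes as elsewhere, which does not measure a change in binding. Near an internal start site of Chd2, chr7:73537237-73537632 in WT and chr7:73537653-73538052 in Chd7-deficient CGNs counted as separate. They lay 4.40 and 3.98 kb into the gene. The study called altered Top2b peaks by another measure, a P-value and fold-change cutoff.

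The start sites of the family were examined next. A Top2b peak lay within 2 kb of a start site at Chd2 and Chd7 in WT CGNs, which is 2 of 9 genes, and at 8 of 9 in Chd7-deficient CGNs, where only Chd5 had none. Among all protein-coding genes these shares were 13.6% and 25.1%, and 17.1% had such a peak in Chd7-deficient and not in WT CGNs, as 6 CHD genes did. The 8 genes were the 8 with an acetylated start site in GNPs. Among the 10183 other protein-coding genes with an acetylated start site, 20.6% had a Top2b peak there in WT and 42.0% in Chd7-deficient CGNs. The Chd7-deficient library also had more of its peaks at H3K27ac sites of GNPs as a whole, 26.6% against 17.4%. With 1 library per genotype, the genotype and the library cannot be told apart.

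**Figure D5:**
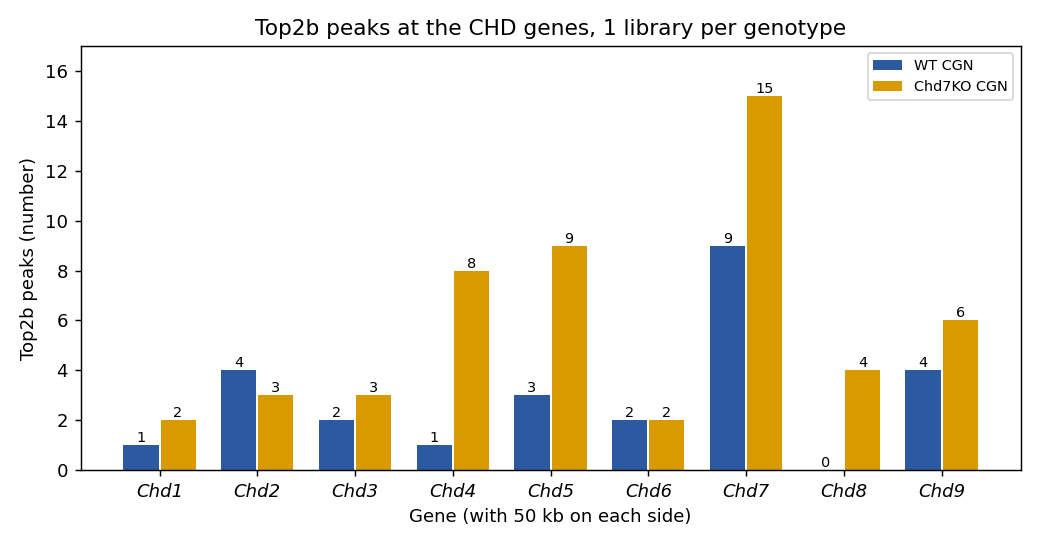
Number of Top2b peaks (vertical axis) in each CHD gene and 50 kb on each side, in WT (blue) and Chd7-deficient (gold) CGNs, 1 library per genotype and hence no error bars. Counts are higher in Chd7-deficient CGNs at 7 genes, equal at Chd6 and lower at Chd2.

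At the Chd7 locus 8 of 9 Top2b peaks of WT CGNs and 10 of 15 of Chd7-deficient CGNs overlapped a GNP H3K27ac peak. At the paralogues 2 of 17 and 20 of 37 did, and over the whole libraries 17.4% and 26.6%. H3K27ac peaks also covered more of the window at Chd7, 25.3% against 0.778 to 14.5% at the paralogues. Of the 53 H3K27ac peaks of Chd7, 8 held a Top2b peak of WT CGNs (15.1%, 7.85 to 27.1%), whereas 2 of the 50 at the paralogues (4%, 1.10 to 13.5%) and 9.38% of all H3K27ac peaks did, and these intervals overlap. The 2 at the paralogues were both at Chd2, at its start and at the 1810026B05Rik start. In Chd7-deficient CGNs 11 of the 53 held a Top2b peak, or 20.8% (12 to 33.5%), and 21 of the 50 at the paralogues, or 42% (29.4 to 55.8%), beside 18.3% of all H3K27ac peaks. The share was thus higher at Chd7 in WT and at the paralogues in Chd7-deficient CGNs. The intervals overlapped in both, but they treat neighbouring peaks of 1 library as independent, and the difference was not tested. The paralogues, in name order, had 1, 4, 5, 3, 0, 3, 2 and 4 H3K27ac peaks nearest to their own start site. Their windows held 1, 5, 12, 13, 2, 6, 6 and 5, whereas all 53 at Chd7 were nearest to a Chd7 start site. The paralogue shares thus include elements of neighbouring genes. Positions found in both genotypes at Chd7 were 23.8 kb upstream of the start and 176 kb into the gene, and both lay on H3K27ac peaks.

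Partner genes of NuRD and genes of other remodellers were set beside the CHD genes. Of 11 NuRD partner genes, among them Hdac1, Hdac2, Mta1 and Mta2, all 11 had an acetylated start site, beside 46.5% of all protein-coding genes. In their windows 0 of the 11 had a WT Chd7 peak, beside 14.3%, and with so few genes this count is a description only. They had 1 to 12 H3K27ac peaks with a median of 4. A super-enhancer-like region overlapped 1 of them, Mbd3, beside 4.18% of all protein-coding genes. Of 6 other remodeller genes (Smarca1, Smarca5, Ino80, Srcap, Ep400 and Chd1l), 5 had an acetylated start site, Smarca1 being the exception. In their windows 4 of the 6 had a WT Chd7 peak, beside the 14.3% of all protein-coding genes. This count too is a description only. At Smarca5, the motor of ISWI complexes, Srcap and Ep400, which deposit the histone variant H2A.Z, the Chd7 peak lay at the gene's own start site, with folds of 5.08, 4.61 and 4.47. The Chd7 peak in the window of Chd1l, a poly(ADP-ribose)-activated remodeller, was nearest to Prkab2.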

How the data were processed

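Chd7, H3K27ac and Top2b ChIP-seq libraries of P7 GNPs and CGNs were used, 1 per condition. The input libraries were not analysed here. The authors trimmed reads, mapped them to mm10 with bowtie, keeping reads with 1 alignment, and called peaks per library with macs2 (Chd7, H3K27ac) or homer (Top2b). Bowtie 1.0.0, HOMER, MACS2 and Trim Galore are named in the submitters' processing notes. The control used by macs2 is not given in the sources used here.

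The deposited macs2 tables give the pileup, a coverage signal of fragments at the summit, together with fold enrichment, −log10 p-value and −log10 q-value. H3K27ac pileups are multiples of 0.941, as when a library is scaled to its control. The last 3 columns had lost their decimal points, which were restored by dividing by 100000. For 31235 H3K27ac, 1946 WT Chd7 and 96 Chd7-deficient Chd7 peaks, Poisson p-values recomputed from pileup and background were within 1% of the restored ones on the −log10 scale, taking for each peak the closer of the tail including and excluding the pileup. The deposited Top2b files give positions only.

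Peaks belonged to a gene when their centre lay in it or within 50 kb. Overlap was at least 1 bp. A start-site peak overlapped 2 kb around a coding transcript start of GENCODE M21. The members, gene lists and comparisons were chosen with earlier results of these data known. Named were all CHD genes, every Chd7 peak in their windows, the start-site and the strongest H3K27ac peak of each gene, the 3 genes nearest to Chd7 in peak number, and up to 4 examples of each list of related genes. Further elements of the CHD genes, and Mbd3, were named after their values were seen. Shares have 95% Wilson intervals and whole pileups exact Poisson intervals. Depth is unknown, since read totals are not in the tables. Window counts, overlaps and joining of peaks were tested on simulated peaks. The sequences of 2 Chd7-bound sites are not reported here. The genome sequence was checked against the RefSeq promoter table, in which 1000 of 1000 sequences were identical. Alternatives changed the gene window, thresholds, overlap and joining rules. Computation used scipy 1.17.1, pandas 2.3.3 and numpy 2.4.6 in Python 3.11.15, and figures matplotlib 3.10.9.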

Additional observations from a re-analysis of the deposited data

How the results depend on the processing

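Of 43 alternative settings, 31 left the result within 1.5 times its value and 12 moved it further. A −log10 q-value of at least 5 left 3 of the 6 WT Chd7 peaks at CHD genes, at Chd3, 109 kb into Chd7 and at Mettl3 in the window of Chd8, and 3 of the 5 that overlap H3K27ac, and the 4 genes with a Chd7 peak became 3. A −log10 q-value of at least 10 left 21 of the 53 H3K27ac peaks at Chd7. The ratio of H3K27ac peaks at Chd7 to the paralogue median rose from 9.64 to 14.8 with peak centres inside the gene and to 17.7 with peaks nearest to the gene's own start site. Top2b peaks at CHD genes numbered 14 in WT and 24 in Chd7-deficient CGNs inside the genes, 15 and 25 from 5 kb upstream to 1 kb downstream, and 17 and 31 by the nearest start site. Leaving out peaks at start sites before joining left 1 CHD gene, Chd7, with a super-enhancer-like region, and joining at 5 kb left 2, Chd2 and Chd7. The count of 0 Chd7 peaks of Chd7-deficient GNPs held under all 5 alternatives tried, which are among the 31. None of them could change it, since the nearest such peak lay 5861 kb from a CHD gene. A threshold on Top2b peaks was not run because the files give no score, and the number of H3K27ac peaks at Chd7 was not replaced by covered length, which has another unit, although the ratio to the paralogue median was (13.6). No paired analysis was possible because each condition has 1 library and no result comes from a test. The lowest called pileup of a WT Chd7 peak was 12 fragments, and the part of depth was not tested.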
